A study of Mus musculus with 4 samples.

Results

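The REG genes encode small secreted proteins built on a C-type lectin fold, and Extl3 encodes an exostosin-like glycosyltransferase that has also been reported as a REG receptor. The set held 8 mouse genes, Reg1, Reg2, Reg3a, Reg3b, Reg3d, Reg3g, Reg4 and Extl3, of 23462 genes named on the arrays. Members were the probes whose RefSeq record belongs to one of these symbols, which gave 9 probes, 1 spot each, with 2 probes for Reg3d alone. Of the 8 genes, 4 (Reg1, Reg3d, Reg3g and Extl3) were well above background on at least 2 of the 4 arrays and could be tested among 17132 genes. The other 4 (Reg2, Reg3a, Reg3b and Reg4) were well above background on no array, as were 23.5% of all genes.

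As background, pancreatic acinar cells secrete REG proteins after injury, and gut epithelial cells secrete Reg3b and Reg3g, which bind bacterial surface sugars. Interleukin-22 and interleukin-6 type cytokines switch on REG3 genes through the transcription factor STAT3. Extl3 acts in the Golgi, where it adds the sugar that starts a heparan sulfate chain on a core protein, and it has been described as a binding partner of REG proteins in rat and human cells. In the nervous system, REG genes are known as injury-induced genes of sensory neurons and their axons.

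Whole-brain total RNA was read on 4 single-colour arrays, 1 for each of 4 groups: wild-type mice given phosphate-buffered saline (PBS), Nav1.8CreROSA26DTA mice given PBS, wild-type mice given lipopolysaccharide (LPS), and Nav1.8CreROSA26DTA mice given LPS. LPS, a bacterial outer-membrane component used to model sepsis, was given intraperitoneally at 20 mg/kg with brain sampling at 12 h. In Nav1.8CreROSA26DTA mice, Cre made from Scn10a, which encodes the nociceptor channel Nav1.8, removes a stop in front of diphtheria toxin A at the ROSA26 locus, so Nav1.8-lineage sensory neurons, most of them nociceptors, are killed. The cell bodies of those neurons lie in sensory ganglia, which were not sampled. The labels give no age, sex or strain background, and do not say whether an array holds 1 mouse or a pool. The comparisons ask what LPS did to these genes in brain and whether the genotypes differed.

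The 75th percentile of the processed signal was 612, 514, 634 and 726 on the wild-type PBS, Nav1.8CreROSA26DTA PBS, wild-type LPS and Nav1.8CreROSA26DTA LPS arrays, and 66.5% to 69.5% of spots were well above background. All 6 neuron markers were well above background on all 4 arrays. Of 8 sensory neuron markers, 5 were so on all 4 arrays (Scn10a, Calca, Prph, P2rx3 and Avil) and 2, Trpv1 among them, on none. Scn10a, from which Cre is made, had scaled log2 levels of −2.21 and −2.54 with PBS and 0.08 and 0.55 with LPS in wild-type and Nav1.8CreROSA26DTA, a rise with LPS of 2.69 ± 0.19 (adjusted p 2.24e-05) averaged over genotypes; the genotypes differed by 0.07 ± 0.19 (adjusted p 0.943), and brain levels do not check an ablation in ganglia. The arrays shared 1 slide and 1 scan, with PBS arrays in one row and LPS arrays in the other, so slide row and injection cannot be told apart. Averaged effects below set 2 arrays against 2 in one linear model, with limma's standard error after ±, and differences within a pair of arrays have no replicate and no test. In whole brain, fewer cells of a type and less RNA per cell cannot be told apart.

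Among the 4 tested genes, 1 rose with LPS (Reg3g), set beside 5.62% of all tested genes, and 0 fell by the limma test, set beside 4.54%. At an unadjusted p under 0.05 the LPS count was 2, Reg3g and Reg1. For genotype, 0 of 4 passed, set beside 0.409% of all tested genes, and 1 (Reg1) had an unadjusted p under 0.05. Reg3g entered the fit through the LPS arrays alone, on which it was bright, so these counts support nothing about the set. The plot of processed signals shows every probe on every array.

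**Figure D1:**
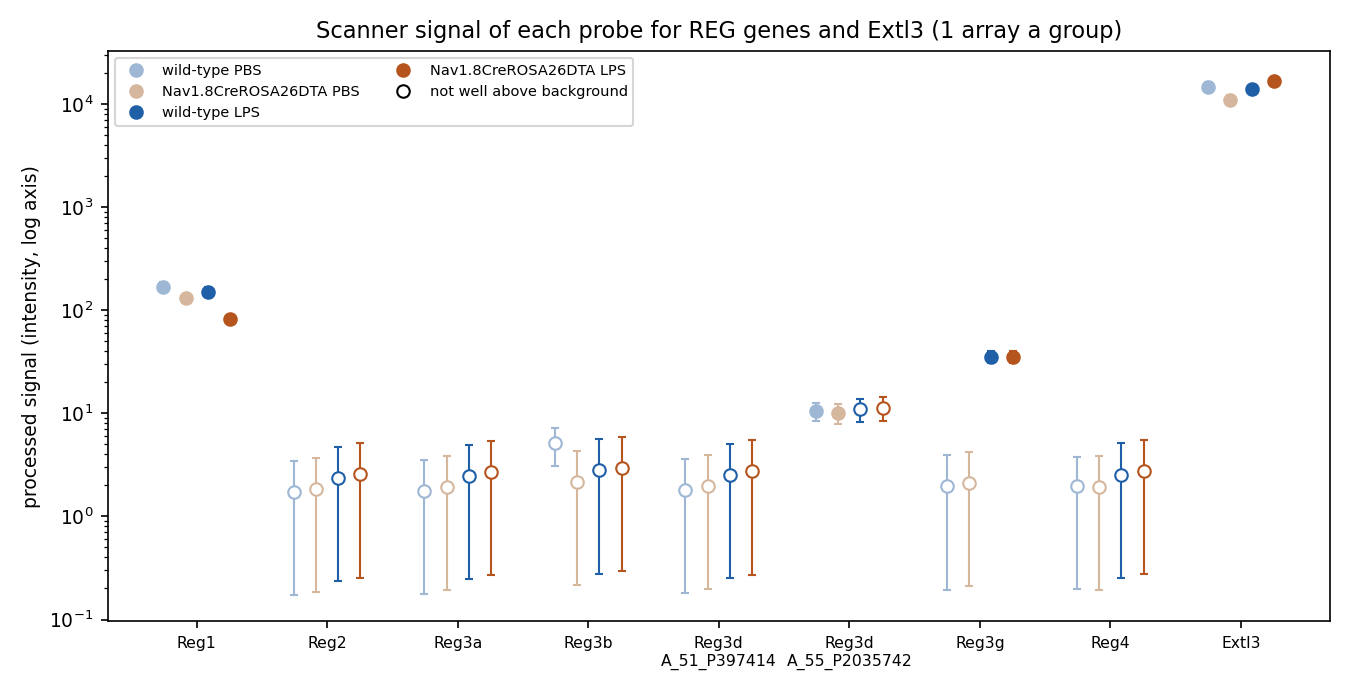
Processed signal (intensity, log axis) of each of the 9 probes on the 4 arrays, 1 array a group. Points are single spots, bars the scanner software's error for that spot, and open circles spots not well above background. Reg3g is filled on the 2 LPS arrays alone, Reg1 is lowest on the Nav1.8CreROSA26DTA LPS array, and Extl3 stays between 11090 and 16820.

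Reg3g, which encodes an antibacterial lectin that binds peptidoglycan, was well above background on both LPS arrays and on neither PBS array. Its processed signal was 1.95 in wild-type PBS, 2.10 in Nav1.8CreROSA26DTA PBS, 35.6 ± 4.45 (the software's error for the spot) in wild-type LPS and 35.6 ± 4.58 in Nav1.8CreROSA26DTA LPS. Before the software's surrogate values for dim spots were put in, the background-subtracted signals were 1.25, 0.388, 32.9 and 33.2 in the same order. Both LPS arrays were therefore high and both PBS arrays were near background. Reg3g was tested because of its marks on the LPS arrays, so the gap between LPS and PBS arrays adds no support.

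Reg3g was at least 3.70-fold higher with LPS over both genotypes, with a bound of 4.53-fold for the wild-type pair and 3.02-fold for the Nav1.8CreROSA26DTA pair. These bounds set the LPS signal against the lowest signal that counted as well above background on each PBS array. The size of the rise is known only as a bound. The limma fit takes dim spots at their deposited values and gave a difference of 3.86 ± 0.49 (log2; mean −4.25 with LPS and −8.11 with PBS, n = 2 arrays each; adjusted p 0.00104), which rests on surrogate values with PBS and is no estimate of that size. A normexp background correction with an offset of 50, larger than the Reg3g signal above background, took the fitted difference to 0.33 with an adjusted p of 0.387. Its marks on the 4 arrays were shared by 103 genes, 0.439% of all genes, whose bounds ran from 1.42-fold to 3113-fold with a median of 2.78, and 37 of them had a higher bound than Reg3g. The local background of the Reg3g spot carried the software's population-outlier mark on 3 of 4 arrays, against 2.13% to 4.83% of spots per array, and the 1 array without it was wild-type LPS; its part in the values was not tested.

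With LPS, the genotypes gave nearly equal Reg3g signals. The scaled signal was 5.62% of the array's 75th percentile in wild-type and 4.90% in Nav1.8CreROSA26DTA, a ratio of 0.873 (log2 difference −0.20, against a combined spot error of 0.26). The averaged genotype effect was 0.08 ± 0.49 (log2, 95% interval −1.02 to 1.18, adjusted p 0.981). An interval of this width does not show that the genotypes were alike, and the PBS pair in that average compares dim spots.

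The promoter sequences are shown because the 2 most similar REG promoters belong to a gene that rose, Reg3g, and one that stayed dim, Reg3b, and Reg1 had its own profile. They are the 250 bases before the annotated start, from RefSeq on GRCm38.p6, 5′ to 3′ on the gene's strand. Capitals mark matches to the TATA box letters TATAAA on either strand, to the STAT core TTCNNNGAA and to the AP-1 letters TGANTCA. The windows are chr6:78468875-78469124 on the minus strand for Reg3g, chr6:78370635-78370884 on the plus strand for Reg3b and chr6:78425733-78425982 on the plus strand for Reg1.
Reg3g: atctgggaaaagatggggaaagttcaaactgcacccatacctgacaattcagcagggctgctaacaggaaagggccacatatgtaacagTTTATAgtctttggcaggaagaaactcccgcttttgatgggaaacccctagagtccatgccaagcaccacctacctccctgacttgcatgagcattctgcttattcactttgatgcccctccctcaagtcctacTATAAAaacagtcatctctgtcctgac
Reg3b: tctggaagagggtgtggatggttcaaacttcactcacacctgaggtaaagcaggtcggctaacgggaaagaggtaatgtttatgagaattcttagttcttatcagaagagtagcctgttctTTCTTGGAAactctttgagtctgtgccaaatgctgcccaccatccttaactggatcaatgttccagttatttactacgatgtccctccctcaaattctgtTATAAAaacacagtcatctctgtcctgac
Reg1: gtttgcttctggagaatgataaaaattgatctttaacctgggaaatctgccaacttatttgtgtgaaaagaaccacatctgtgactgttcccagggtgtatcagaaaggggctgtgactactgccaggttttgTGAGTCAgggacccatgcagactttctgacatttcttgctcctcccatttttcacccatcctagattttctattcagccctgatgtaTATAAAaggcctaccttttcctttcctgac

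Over an alignment of 253 columns, 173 bases (68.4%) were the same in Reg3b and Reg3g, with a longest shared run of 20 bases. The other 20 pairs among the 7 REG promoters were 43.8% to 56.2% identical. Both strands were searched for 5 motifs, and no matches overlapped in these 7 windows. A TATA box lay 27 to 22 bases before the start in Reg3g, 29 to 24 in Reg3b and 30 to 25 in Reg1; 4 of 7 REG promoters held one, set beside 12.4% of 32851 promoters of this length. A STAT core was present in Reg3b, 129 to 121 bases before the start, and in Reg3d, and 7.02% of all promoters held one. Reg1 held an AP-1 match 117 to 111 bases before the start, a motif in 6.75% of promoters. Reg3g held no match to the STAT core, AP-1, NF-kB (GGG and TTCC with 3 bases between, 4.65% of promoters) or C/EBP (TTGCNNAA, 9.56%) letters in this window, which says nothing about binding elsewhere. The stretch gggaaacccc in this window ends in CCCC where the NF-kB letters end in TTCC, so it was not counted. Looser forms of these motifs were not searched.

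Reg3b, the gut lectin that is co-induced with Reg3g there, gave 5.21 ± 2.08 in wild-type PBS, 2.16 in Nav1.8CreROSA26DTA PBS, 2.79 in wild-type LPS and 2.97 in Nav1.8CreROSA26DTA LPS. The wild-type PBS spot exceeded its local background by the software's significance mark, but no array reached the well-above-background mark. Reg2, a pancreatic REG protein, ranged from 1.71 to 2.56, and Reg3a, a paralogue in the same cluster, from 1.76 to 2.70. Reg4, a gut secretory-cell REG protein whose gene lies outside the cluster, ranged from 1.95 to 2.77. The Reg4 spot in wild-type PBS also carried the significance mark, at a signal about the size of its error. Apart from the wild-type PBS spots of Reg3b and Reg4, the dim spots here held the software's surrogate, about equal to its error. Those surrogate values have no order across arrays. Probe sequences were not used here, so how far a REG probe also reads a paralogue's RNA was not tested; the Reg3b spot was dim on both LPS arrays on which Reg3g was bright.

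Reg3d, another paralogue of the cluster, had 2 probes that disagreed in level. Probe A_55_P2035742 gave 10.6 ± 2.14 in wild-type PBS, 10.1 ± 2.23 in Nav1.8CreROSA26DTA PBS, 11.1 ± 2.76 in wild-type LPS and 11.4 ± 2.95 in Nav1.8CreROSA26DTA LPS. Only the PBS arrays carried the well-above-background mark, a pattern of 136 genes (0.58%), although the 4 signals lay within 1 spot error of each other. The lowest signal that carried the mark on any spot was 7.60 and 8.34 on the PBS arrays and 10.6 and 11.5 on the LPS arrays. The averaged differences were −0.15 ± 0.44 for LPS (log2, 95% interval −1.14 to 0.83, adjusted p 0.882) and 0.01 ± 0.44 for genotype (95% interval −0.98 to 0.99, adjusted p 0.999). Probe A_51_P397414 was dim on all 4 arrays, at 1.81 to 2.73. With both probes averaged the LPS difference was 0.02, so no direction can be given for Reg3d.

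Reg1, the founding member of the family and a pancreatic secretory protein, was well above background on all 4 arrays. Its processed signal was 169.6 ± 17.1 in wild-type PBS, 130.7 ± 13.2 in Nav1.8CreROSA26DTA PBS, 152.1 ± 15.4 in wild-type LPS and 82.1 ± 8.72 in Nav1.8CreROSA26DTA LPS. Scaled to the array, these were 27.7%, 25.4%, 24.0% and 11.3% of the 75th percentile. One array, Nav1.8CreROSA26DTA LPS, was low, and the other 3 lay in the order wild-type PBS, Nav1.8CreROSA26DTA PBS and wild-type LPS, with gaps no larger than about 1 spot error.

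Within Nav1.8CreROSA26DTA, Reg1 was 0.445 times its PBS level with LPS (log2 difference −1.17, combined spot error 0.21), and 1.42% of genes measured in that pair were at least 2-fold lower. With LPS, Nav1.8CreROSA26DTA was 0.471 times wild-type (log2 difference −1.09), and 0.369% of genes were at least 2-fold lower in that pair. The other 2 pairs differed by −0.21 (wild-type, LPS minus PBS) and −0.13 (PBS, between genotypes), about the size of the spot error of 0.21 or below it. The responses to LPS thus differed by −0.96 (log2) between genotypes, a difference of single arrays that has no test.

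The averaged Reg1 effects did not pass the threshold: −0.69 ± 0.23 for LPS (log2, 95% interval −1.21 to −0.17, adjusted p 0.101) and −0.61 ± 0.23 for genotype (95% interval −1.12 to −0.09, adjusted p 0.390). Without the Nav1.8CreROSA26DTA LPS array the LPS difference was −0.14 (adjusted p 0.911), and without the wild-type LPS array it was −1.23 (adjusted p 0.0483). For genotype, leaving out either LPS array left −0.13 and either PBS array −1.09, with no test. Scaling to the median took the LPS difference to −0.74 with an adjusted p of 0.0438. Oligodendrocyte markers also differed among these arrays, with summed scaled signals of 82.7, 116, 56.7 and 117 times the 75th percentile in the order above and 4 of 4 measured on every array; their part in the Reg1 values was not tested. The signals of acinar genes summed to 2.49, 2.98, 2.57 and 3.15 and were not lowest on the array where Reg1 was.

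**Figure D2:**
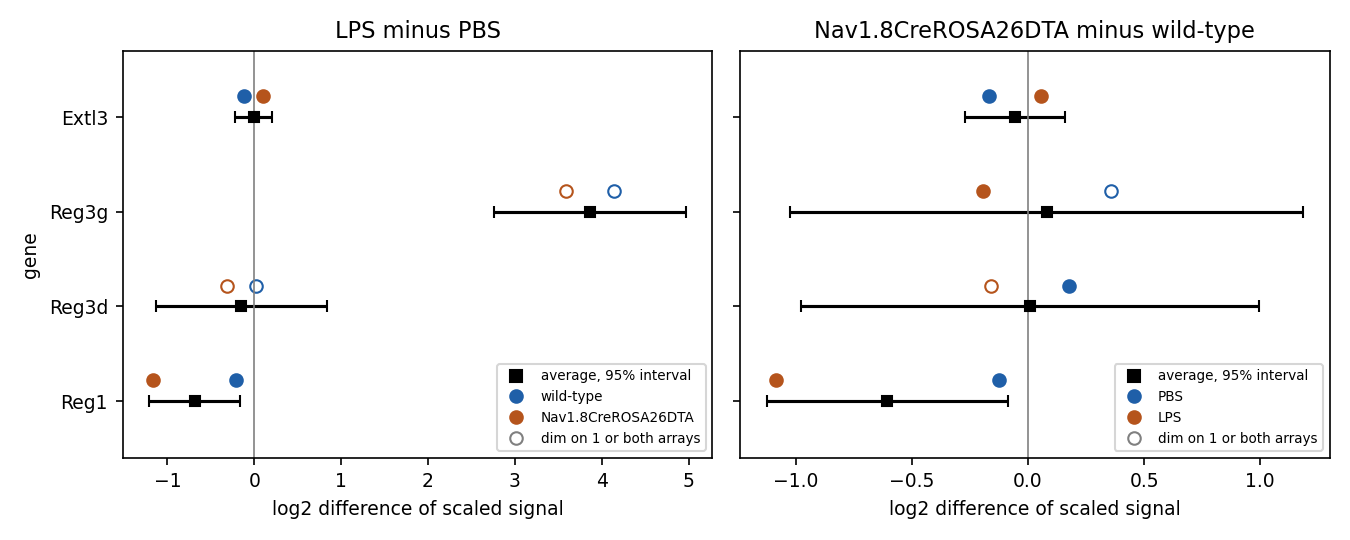
Log2 difference of scaled signal for the 4 tested genes, LPS minus PBS (left) and Nav1.8CreROSA26DTA minus wild-type (right). Squares are averages over 2 pairs of arrays with limma's 95% interval, circles single pairs, and open circles pairs with a dim spot. The Reg3g interval for LPS (2.76 to 4.97) rests on surrogate values with PBS and is no estimate of the size of the rise. The 2 Reg1 pairs lie far apart in both panels, and the Extl3 pairs lie within 0.17 of 0.

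Extl3, the enzyme and reported receptor, was bright on all 4 arrays. Its processed signal was 14810 in wild-type PBS, 11090 in Nav1.8CreROSA26DTA PBS, 14110 in wild-type LPS and 16820 in Nav1.8CreROSA26DTA LPS, each with a spot error of about 10%. After scaling, the log2 values were 4.596, 4.430, 4.477 and 4.533, so every gap between groups was smaller than the combined spot error of 0.20. The averaged LPS difference was −0.01 ± 0.10 (log2, 95% interval −0.22 to 0.21, adjusted p 0.974), an interval of 0.856 to 1.16 times the PBS level. The averaged genotype difference was −0.06 ± 0.10 (95% interval −0.27 to 0.16, adjusted p 0.907), or 0.828 to 1.12 times wild-type. Both intervals leave out a 2-fold change in either direction. The sign of the LPS difference turned under cyclic loess (0.09), the deposited value table (0.06) and normexp with an offset of 50 (0.01).

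The other exostosin-family enzymes, which extend the chain that Extl3 starts or are its paralogues, were all measured on all 4 arrays. For this and the following lists, the shares over all tested genes were 5.62% higher and 4.54% lower. Of 5 tested, Extl3 included, 0 rose and 0 fell with LPS by the limma test, and 0 had an unadjusted p under 0.05. Their median was −0.15 (log2), beside −0.03 over all tested genes. The chain polymerase subunits gave −0.15 ± 0.10 (Ext1) and −0.15 ± 0.26 (Ext2), and the paralogues −0.33 ± 0.16 (Extl1) and 0.09 ± 0.09 (Extl2).

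Of 23 tested genes for heparan sulfate chain synthesis and editing, 0 rose and 1 (4.35%) fell, a share close to that over all tested genes. The one that fell was the 2-O-sulfotransferase Hs2st1, at −0.38 ± 0.10 (log2, adjusted p 0.0417), with scaled log2 levels of 2.39 and 2.57 with PBS and 2.12 and 2.07 with LPS. The list's median was −0.17, and 7 genes had an unadjusted p under 0.05. Of 12 core proteins that carry the chains, 2 (16.7%) rose and 0 fell: Hspg2 (perlecan, of basement membranes) by 0.80 ± 0.15 (adjusted p 0.00955) and Sdc4 (syndecan-4, of cell surfaces) by 0.46 ± 0.10 (adjusted p 0.016). Both genes were higher on each LPS array than on either PBS array, which is likely for genes called on these arrays and adds no support. The other 10 core proteins did not pass, and the list's median was −0.12, or −0.05 with dim spots set to the floor.

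Of 26 cytokine, receptor and STAT3-pathway genes that act upstream of REG genes in other tissues, 22 were tested, and 5 (22.7%) rose and 1 (4.55%) fell with LPS, with a median of 0.18. The interleukin-6 family receptor Osmr rose by 2.63 ± 0.13 (log2, adjusted p 2.95e-06), the STAT3 target and feedback inhibitor Socs3 by 1.76 ± 0.12 (adjusted p 1.73e-05), the interleukin-6 receptor Il6ra by 0.94 ± 0.12 (adjusted p 0.000888) and the Toll-like receptor adaptor Myd88 by 0.94 ± 0.12 (adjusted p 0.00141). The other gene that rose was Stat3, by 0.62 ± 0.09 (adjusted p 0.00304), and the gene that fell was the alarmin Il33, by 0.65 ± 0.12 (adjusted p 0.00888). For all 6 genes, both LPS arrays lay on the same side of both PBS arrays. Genes called on these same arrays are likely to show this, so it adds no support. Interleukin-22, the main gut inducer of Reg3g, gave 0.18 ± 0.42 (Il22, adjusted p 0.851), with 3 of 4 arrays above background, and its receptor chain Il22ra1 gave −0.24 ± 0.34 (adjusted p 0.732). Il6 itself was well above background on the Nav1.8CreROSA26DTA LPS array alone, and Il22ra2, Il17a and Lif were so on none.

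Secreted antimicrobial proteins, the class to which Reg3g belongs by function, held 17 tested genes of 21 listed, of which 8 (47.1%) rose and 2 (11.8%) fell with LPS, with a median of 2.06 (1.11 with dim spots at the floor). The acute-phase protein Saa3 was at least 3113-fold higher, and the siderophore-binding protein Lcn2 rose by 8.30 ± 0.23 (log2, adjusted p 8.97e-08). Saa3 entered the fit through the LPS arrays alone, so its place in the count rests in part on the filter. The acute-phase proteins Saa1 and Saa2 rose by 4.80 ± 0.31 and 4.30 ± 0.30. The ribonuclease genes Ang and Ang4, which are paralogues whose probes may share signal, fell by 1.02 ± 0.25 (adjusted p 0.0323) and 1.16 ± 0.30 (adjusted p 0.0431). The lectin Itln1 and the gut peptide Retnlb were well above background on no array, like Reg3b.

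Among 21 tested genes of 29 other C-type lectin domain genes, 4 (19%) rose and 1 (4.76%) fell with LPS, with a median of 0.06. All 4 that rose are myeloid receptors: Clec4d was at least 9.24-fold higher and Clec4e at least 3.39-fold higher, with the same marks as Reg3g, while Clec5a rose by 2.26 ± 0.20 (log2, adjusted p 9.3e-05) and Clec4a3 by 2.13 ± 0.24 (adjusted p 0.000518). The dendritic-cell lectin Cd209a was well above background on the PBS arrays alone and at least 1.39-fold lower with LPS (adjusted p 0.0261, from a fit that takes the dim LPS spots at their deposited values). Clec4d and Clec4e entered the fit through the LPS arrays alone, and Cd209a through the PBS arrays alone. The counts for this lectin list therefore rest in part on the filter. Of 11 tested genes known as sensory neuron injury genes, the class in which REG genes are known in ganglia, 2 (18.2%) rose and 1 (9.09%) fell, with a median of −0.19. The transcription factor Atf3 rose by 1.44 ± 0.36 (adjusted p 0.0357) and the cytokine Csf1 by 0.67 ± 0.11 (adjusted p 0.00492), and the receptor Cckbr fell by 0.67 ± 0.09 (adjusted p 0.00188). For genotype, 0 genes of these 7 lists passed by limma, and the lowest adjusted p was 0.0624. In the secreted antimicrobial list, 11 of 17 tested genes had an unadjusted limma p under 0.05, beside 1747 of 17132 over all tested genes. That list's genotype median was 0.91 (log2), beside 0.02 over all tested genes. Its gene S100a8 differed between genotypes by 4.29 with PBS and 0.66 with LPS. The other lists held 0 to 5 genes with such a p.

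**Figure D3:**
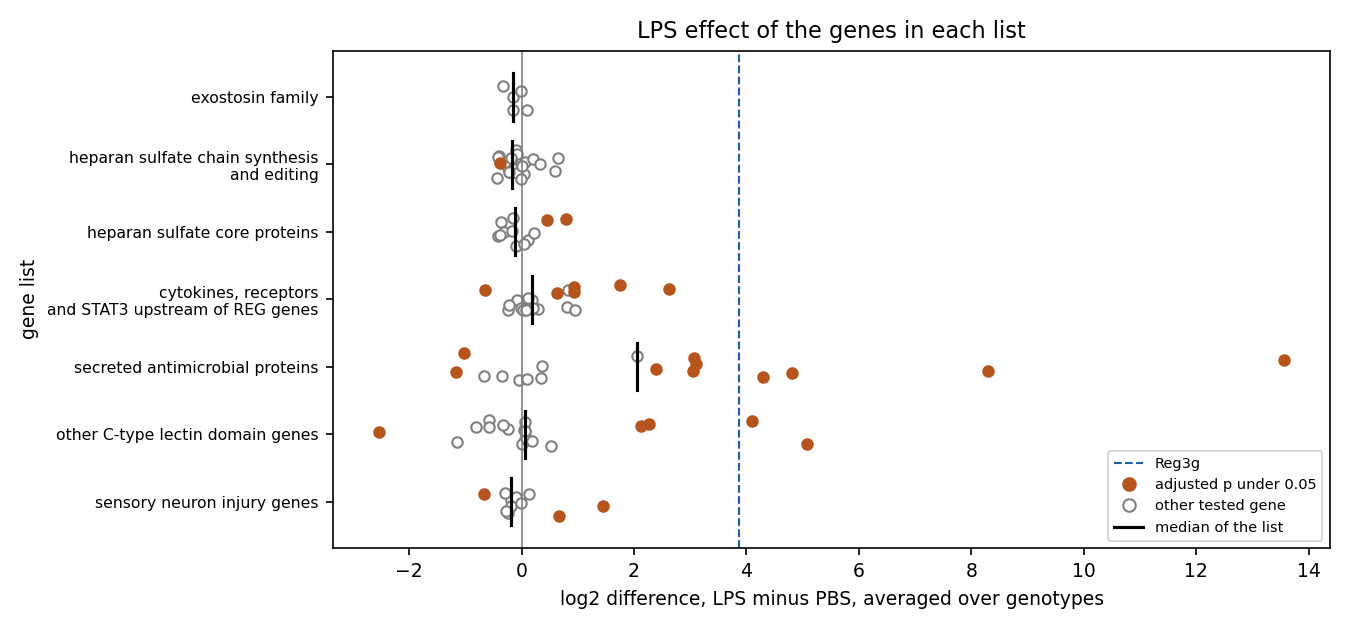
LPS minus PBS averaged over genotypes (log2, 2 arrays against 2) for each tested gene of 7 lists, with dim spots at their deposited values, many of them surrogates. Filled points passed an adjusted p of 0.05, black bars are list medians, and the dashed line is the fitted value of Reg3g, 3.86. The medians of 6 lists lie between −0.19 and 0.18, and that of the secreted antimicrobial list is 2.06.

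Marker genes of cells that could bring REG transcripts into a whole-brain sample were read on the same arrays. Of 13 acinar markers 9 were tested and 0 passed for LPS (0 with an unadjusted p under 0.05), and Prss2 and Pnliprp1 were well above background on no array. Cpa1 was so on the Nav1.8CreROSA26DTA PBS array alone, at a scaled log2 level of −2.45. Its level was −8.23 in wild-type PBS, −7.98 in wild-type LPS and −8.06 in Nav1.8CreROSA26DTA LPS. Cpb1 was well above background on the Nav1.8CreROSA26DTA LPS array alone. Of 12 gut epithelial markers 4 were tested and 0 passed (3 with an unadjusted p under 0.05), and 7 were well above background on none, among them Fabp1, Cdx2 and Cdh17. Of the 4 tested genes, Lgals4 and Vil1 were well above background on all 4 arrays. Muc2 was so on all but wild-type PBS, and Krt20 on all but Nav1.8CreROSA26DTA PBS. The gut list's summed scaled signal was 0.340, 0.435, 0.549 and 0.466 times the 75th percentile in the order above. Their part in the Reg3g signal was not tested.

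Part of the neutrophil list moved with LPS: of 9 tested, 5 rose (S100a8, S100a9, Ly6g, Mmp8 and Retnlg) and 0 fell by the limma test. The list's median was 2.06 (1.44 with dim spots at the floor). Camp (−0.67, adjusted p 0.13) and Elane (−0.24, adjusted p 0.43) were lower with LPS and did not pass. Ngp (2.06, adjusted p 0.166) did not pass either. Its scaled log2 level was −8.2 in wild-type PBS, −3.7 in Nav1.8CreROSA26DTA PBS, −3.9 in wild-type LPS and −3.9 in Nav1.8CreROSA26DTA LPS. The list's summed scaled signal was 67.0, 53.2, 66.6 and 71.5, nearly all of it from the receptor gene Csf3r, which did not pass. Cxcr2 was well above background on no array. The scaled log2 level of S100a8 was −4.82 in wild-type PBS, −0.53 in Nav1.8CreROSA26DTA PBS, 0.06 in wild-type LPS and 0.72 in Nav1.8CreROSA26DTA LPS, so the Nav1.8CreROSA26DTA PBS array was close to the LPS arrays. Ly6g was at −3.82, −3.71, −0.99 and −1.26 in the same order, low on both PBS arrays and high on both LPS arrays, and Mmp8 was at −5.16, −4.19, −3.68 and −2.78. The part of neutrophil RNA in the Reg3g signal was not tested.

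Over the 4 arrays, the profiles closest to Reg3g among the 103 genes with its marks were those of Tmem154, Ifi205, Hcar2, Ifi44 and Tmem252. Likeness was the Euclidean distance between log2 profiles centred on each gene's mean, over 4 arrays: 0.288 for Tmem154, 0.3 for Ifi205, 0.504 for Hcar2, 0.517 for Ifi44 and 0.527 for Tmem252. Ifi205 and Ifi44 are known as interferon-induced genes, and Hcar2 encodes a receptor for hydroxybutyrate and niacin. With LPS they were at least 3.06-fold (Tmem154), 9.77-fold (Ifi205), 4.53-fold (Hcar2), 14.8-fold (Ifi44) and 5.79-fold (Tmem252) higher. The PBS side of each profile rests on spots not well above background, so the order among these 5 genes is loose. In wild-type PBS, Tmem154 (−8.31) and Hcar2 (−8.30) lay near the scaled log2 level of Reg3g (−8.29). Ifi205 (−7.22), Ifi44 (−6.71) and Tmem252 (−7.21) lay higher.

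**Figure D4:**
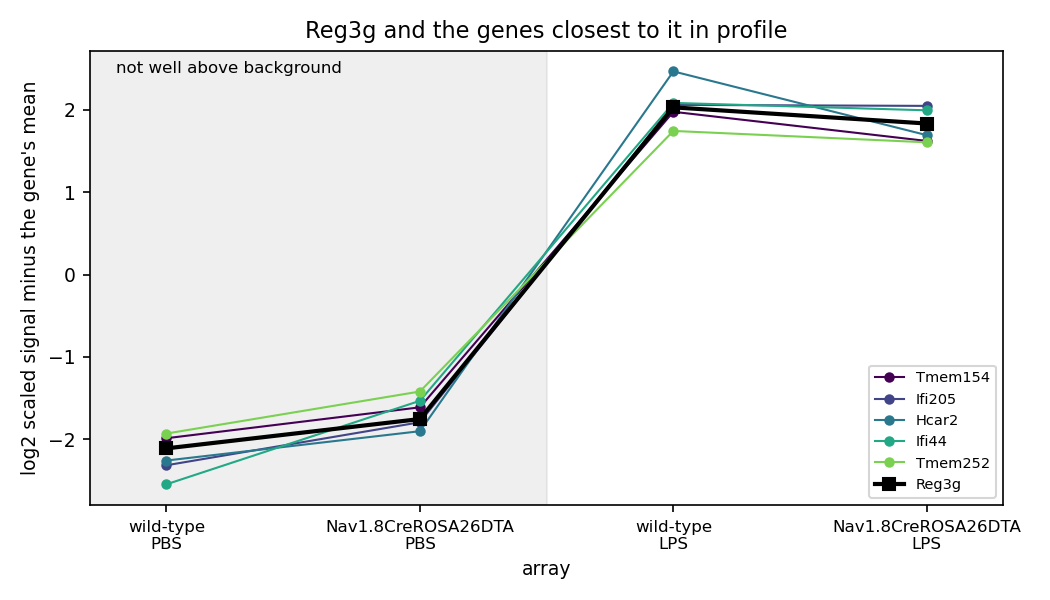
Scaled log2 signal minus the gene's mean over 4 arrays, for Reg3g (black squares) and the 5 genes closest to it. The shaded PBS arrays hold spots not well above background, and every line is low on those 2 arrays and high on the 2 LPS arrays, 1 array a group.

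On the chromosome, 6 of the 7 REG genes form one cluster on chromosome 6, in the order Reg3b, Reg3d, Reg3a, Reg2, Reg1 and Reg3g, with 0 other protein-coding genes between them. Within it, Reg3g at one end rose with LPS, its neighbour Reg1 did not pass, and Reg2, Reg3a and Reg3b were dim. The nearest tested genes outside gave 0.01 ± 0.10 (Lrrtm1, beside Reg3b, log2, adjusted p 0.961) and −0.25 ± 0.12 (Gm20594, beside Reg3g, adjusted p 0.237) for LPS. Neither flank of the cluster passed the test. Reg4 lies on chromosome 3, and the nearest tested gene before it, Notch2, gave −0.28 ± 0.18 (adjusted p 0.401). Extl3 on chromosome 14 lies between Ints9, an Integrator subunit (−0.03 ± 0.10, adjusted p 0.889), and Fzd3, a Wnt receptor that fell by 0.43 ± 0.10 (adjusted p 0.0272).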

How the data were processed

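Total RNA, extracted with TRIzol and labelled with a low-input Cy3 kit per the labels' protocols, was read on 1 array for each of 4 groups. The deposited processed signal is a spot intensity on a linear scale, background-subtracted and detrended within the array, per the file headers. The headers name Agilent Feature Extraction 12.0.3.1 and mm9 for the design grid, and the submitters' processing notes name version 11.0.1.1. The deposited value table, also an intensity, equalled that signal times 1.82, 2.09, 1.83 and 1.57 (within 0.1% for at least 59304 of 59305 spots), with column medians of 97.2, 91.4, 103 and 102.

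Outlier spots (81 to 96 an array) were left out; 0 were saturated. Values were log2 of the deposited processed signal minus each array's 75th percentile. Of 56605 probes, 33767 (59.65%) were named through RefSeq records with a GRCm38.p6 gene table and 22838 were not. A gene's probe was the one detected (well above background) on most arrays and, among equals, the brightest. Genes well above background on at least 2 arrays entered limma 3.58.1 (R 4.3.3), fitted with terms for injection and genotype and an intensity trend, two-sided, with Benjamini-Hochberg adjustment over 17132 genes and a threshold of 0.05. The model leaves 1 residual degree of freedom, pooled with 7.99 from other genes, so a true difference of response counts as error and p-values do not measure spread between animals. LPS called 1740 genes (963 higher, 777 lower) and genotype 70 (52 higher, 18 lower); at an unadjusted p under 0.05 the counts were 4036 and 1747.

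Members, lists and tests were chosen with earlier results of these data known. Text names all members, up to 4 called genes a direction and list, the 5 profiles closest to Reg3g and flanking genes; others (further members of the exostosin list, Stat3 as the last gene that rose, undetected cytokines and lectins, and markers) were added after values were seen. Alternatives were other scalings, background corrections (normexp on median signals), filters, probe rules, variance settings and leaving out each array. The fit was tested on simulated data. Some results are not reported here. The number of arrays limits precision throughout.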

Additional observations from a re-analysis of the deposited data

Results flagged for a closer look

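The Extl3 differences had opposite signs in the paired comparisons. LPS minus PBS was −0.119 (log2) in wild-type and 0.103 in Nav1.8CreROSA26DTA, and Nav1.8CreROSA26DTA minus wild-type was −0.166 with PBS and 0.056 with LPS. Each is a difference of single arrays, and the difference between them was not tested. All 4 were smaller than the combined spot error of 0.204.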

How the results depend on the processing

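No paired analysis was possible because each group has 1 array. The fitted Reg3g difference for LPS, which rests on dim PBS spots, was 0.332 (adjusted p 0.387) under normexp with an offset of 50; with an offset of 1, chosen after seeing the data, it was 1.21 (adjusted p 0.0267), and without either PBS array 3.68 to 4.04. Without either LPS array Reg3g failed the filter on dim genes, and with a filter on all 4 arrays neither Reg3g nor Reg3d was tested. Its bound was 2.29-fold against the 5th percentile of signals well above background. Its genotype difference turned to −0.018 with an offset of 1 and to −0.196, with no test, without either PBS array. Extl3 passed under no alternative: for LPS it was 0.088 under cyclic loess, 0.062 in the value table, 0.0082 under normexp and −0.091 to 0.075 with 1 array left out (0.075 when wild-type PBS was dropped and 0.020 when wild-type LPS was), and for genotype −0.166 to 0.056. Reg1 passed for LPS with median scaling (−0.744, adjusted p 0.0438), normexp (−0.519, adjusted p 0.0274) and no filter (−0.688, adjusted p 0.00964), ran from −1.23 to −0.145 with 1 array left out, and for genotype from −1.09 to −0.125. Reg3d turned for genotype under cyclic loess (−0.0087), the value table (−0.028) and normexp with an offset of 1 (−0.049), and for LPS with probes averaged (0.025); the alternatives for Reg1 and Reg3d were added after seeing the data. Genotype calls moved from 70 to 197 with median scaling, 19 with cyclic loess, 28 in the value table, 385 with normexp, 958 with no filter, 12 with probes averaged and 0 without the intensity trend. LPS calls moved from 1740 to 3150 with no filter, 430 without the trend and 410 to 598 with 1 array left out. By the software's positive-and-significant mark 6 members were detected on at least 1 array, against 4 by the well-above-background mark. The added members, Reg3b and Reg4, carried the positive mark on the wild-type PBS array alone. The cause of the other shifts was not tested. Reg3g at about 35 and Reg3d at about 11 lay near background, where signal limits precision.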
